A study of Homo sapiens with 4 samples.

Results

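The genes of cholesterol and fatty acid synthesis were followed in OVCAR3 cells after etoposide. The set was taken by gene name, with no measured value in its rule but with earlier results of these data known, and it holds 30 of the 60605 genes in the deposited transcript tables: 19 enzymes of the sterol branch, 4 regulators and 7 enzymes of the fatty acid branch. OVCAR3 is an established line of high-grade serous ovarian carcinoma. The group treated with etoposide, an inhibitor of topoisomerase II that leaves DNA breaks, had 1.7 µM of the drug for 24 h (2 libraries), and the DMSO group had the vehicle (2 libraries). All 4 libraries came from cells that had first been held with 100 ng/ml nocodazole, an inhibitor of microtubule assembly, for 16 h, washed and released for 3 h, so the DMSO cells are not untouched cells. The titles call the replicates biological but do not say that they were separate cultures, so p-values measure the spread between these libraries. The methods of the study name transfected cells for RNA sequencing, and the labels of these samples name none.

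Cells make cholesterol from acetyl-CoA through mevalonate, farnesyl diphosphate, squalene and lanosterol, and they make fatty acids from the same acetyl-CoA through malonyl-CoA. Many genes of both routes are driven by the sterol regulatory element binding proteins (SREBPs), membrane-bound transcription factors that INSIG proteins hold in the endoplasmic reticulum while sterol is plentiful. When sterol falls, the SREBPs travel to the Golgi, are cut there and enter the nucleus. SREBP-2, from SREBF2, is known mainly for the sterol genes, and SREBP-1, from SREBF1, for the fatty acid genes.

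The depth implied by the deposited values was 47687126 and 58513480 mapped read pairs in the etoposide libraries, against 64473397 and 66500749 in the DMSO libraries. All 10 serous and epithelial markers checked for the labelled line, among them PAX8, WT1 and EPCAM, reached an FPKM of 1 in every library. Their summed FPKM was 2131 and 2203 in etoposide libraries, against 3088 and 2737 in DMSO libraries. Keratins took most of that difference, with KRT8 at 772 and 821 FPKM in etoposide libraries, against 1266 and 1055 FPKM in DMSO libraries. PAX8, MUC16 and MSLN also lay below both DMSO libraries in both etoposide libraries. PAX8 had 222 and 214 FPKM in etoposide libraries, against 258 and 248 FPKM in DMSO libraries. EPCAM had 127 and 134 FPKM in etoposide libraries, against 124 and 125 FPKM in DMSO libraries, and the groups overlapped for WT1 and CDH1. Of 6 fibroblast, 5 leukocyte and 5 endothelial markers, 2, 0 and 1 reached that level in every library. The part of these marker levels in the results was not tested, and in bulk RNA a smaller share of cells that use a gene and less RNA per cell cannot be told apart. The DMSO libraries differed from each other in a way tied to transcript length and GC content. As a log2 difference, DMSO replicate 2 minus replicate 1 had a Spearman correlation with GC content of −0.340 over the 22185 genes tested. For etoposide replicate 2 minus replicate 1 it was −0.0164. With transcript length the coefficients were 0.317 for DMSO and 0.0173 for etoposide. Such a difference does not tell which of the DMSO libraries departed. The larger differences are therefore also given after a correction of each library for transcript length and GC content, and some without single libraries. The correction took no account of group. Over all genes tested, etoposide minus DMSO had Spearman correlations of −0.289 with GC content and 0.194 with length. A treatment difference tied to either would be reduced as well, so a corrected value is not the part due to treatment.

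All 30 genes were expressed at a mean FPKM of at least 1. FPKM is the number of fragments per kilobase of transcript, with the library's depth divided out, here summed over the transcripts of a gene, so that levels of different genes can be set side by side. Members lay between 3.78 and 150.2 FPKM in single libraries, with ACACA the lowest and FDPS the highest. No member passed the test between etoposide and DMSO (limma on log2(FPKM + 0.1), Benjamini-Hochberg adjusted p under 0.05 over 22185 genes), and neither did any other gene (0.0% called higher and 0.0% called lower). The study itself reported differentially expressed genes from DESeq2 on counts, at an adjusted p under 0.05 with a fold-change cut. It also measured some of those genes by qRT-PCR. The empty result here is that of limma on FPKM. The members' adjusted p in the limma fit ran from 0.269 to 0.979. At an unadjusted p under 0.05, 5 members were higher (IDI1, ACLY, SC5D, FADS1 and CYP51A1) and 1 was lower (SREBF1), where 7.06% and 4.85% of all genes tested were. Both etoposide libraries lay above both DMSO libraries for 15 members and below both for 3, against 28.9% and 19.0% of all genes, and the groups overlapped for 12 members, where 47.9% of all genes had groups that did not. The log2 fold change was positive for 22 members, while 56.2% of all genes had a positive value. Those shares include genes below the level of the members. Of the 13559 genes tested at a mean FPKM of at least 1, 4374 lay above, 2809 lay below and 56.9% were positive. At an unadjusted limma p under 0.05, 1157 of them were higher and 818 lower. With limma's voom on estimated fragments, 0 members and 1 gene passed (0.00451% of all genes). The smallest two-sided p that exact permutation of 2 libraries against 2 allows for any gene is 0.3333.

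**Figure D1:**
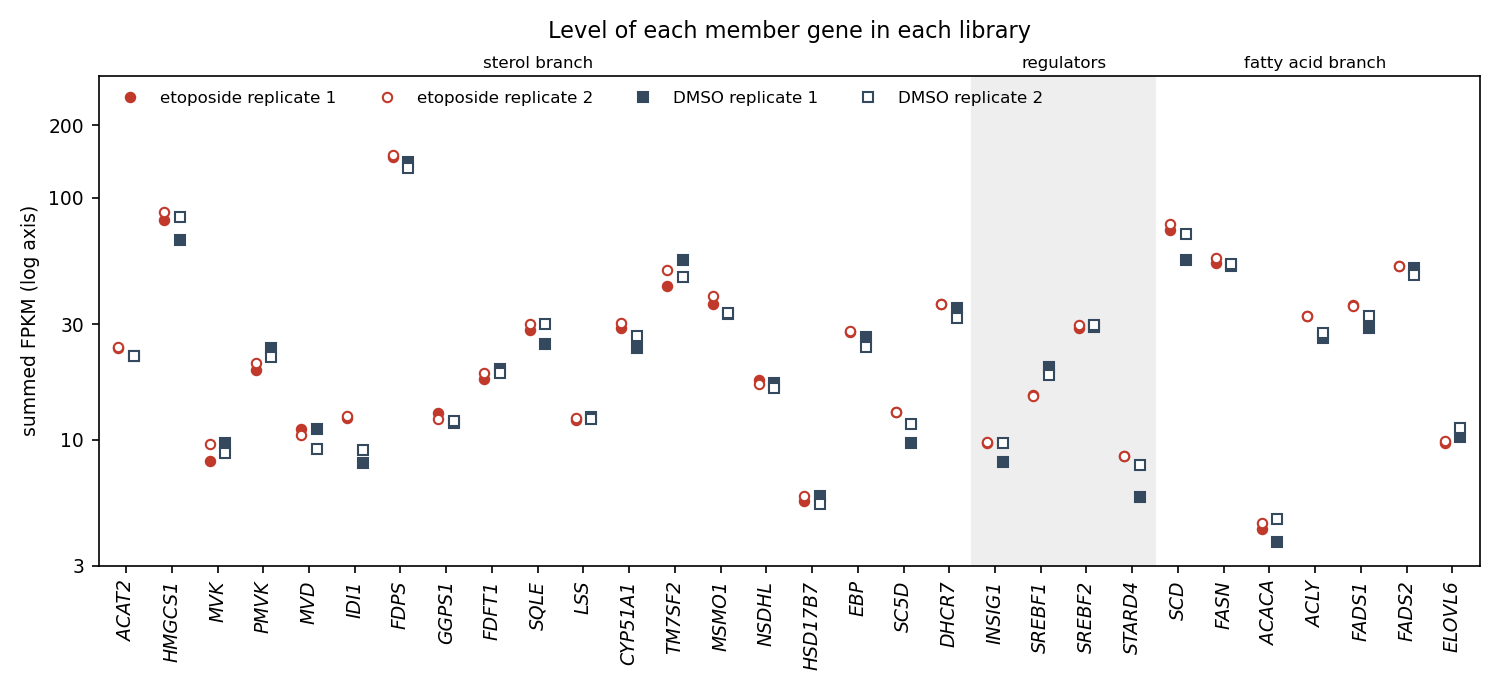
Summed FPKM (vertical log axis) of each of the 30 genes (horizontal axis, in pathway order) in each library, with etoposide as circles and DMSO as squares, filled for replicate 1 and open for replicate 2. The 2 etoposide libraries lie above both DMSO libraries for IDI1, ACLY and SC5D and below both for SREBF1, and the DMSO squares lie far apart for STARD4, SCD and HMGCS1.

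The largest difference among the members was in IDI1, the isomerase that converts isopentenyl diphosphate to dimethylallyl diphosphate (ENSG00000067064, chr10:1039152-1049119, minus strand, GRCh38). IDI1 had 12.3 and 12.5 FPKM in etoposide libraries, against 7.97 and 9.05 FPKM in DMSO libraries. The groups did not overlap, and the log2 fold change was 0.54 ± 0.10 (SE), or 1.46-fold (limma, adjusted p = 0.269). It was 0.42 after the length and GC correction and between 0.45 and 0.63 when single libraries were left out.

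The transcripts of IDI1 were assigned differently in the groups. The leading transcript, ENST00000381344, which encodes 284 residues, had 11.3 and 11.9 FPKM in etoposide libraries, against 4.90 and 3.99 FPKM in DMSO libraries. A second, ENST00000429642, which encodes 227 residues, was listed at 0 in both etoposide libraries, against 2.41 and 4.33 FPKM in DMSO libraries. Neither passed the test over 71340 transcripts (limma, adjusted p = 0.406 and 0.260, with 0 transcripts called and 5.78% under an unadjusted p of 0.05). Whether the cells or the assignment of shared reads made this split was not tested. Coverage of the exons does not depend on that assignment. All 5 exons of the leading transcript were covered more in both etoposide libraries than in either DMSO library. The group means of uncorrected log2 coverage differed by 0.41 to 0.58, and DMSO replicate 1 was the lower DMSO library at every exon. Exons of a gene share the same 4 libraries, so exon counts here and below are not independent measurements. The share of such exons over all genes was not computed. Exon 4 had 20.5 and 20.2 in etoposide libraries, against 12.6 and 17.99 in DMSO libraries, on the FPKM scale. Exon 1, at which the leading transcript begins, had 1.275 and 1.47 in etoposide libraries, against 0.637 and 1.21 in DMSO libraries. It was the least covered of the 5 exons in every library. Of the exonic bases of IDI1, 14.97% are shared with IDI2-AS1 on the opposite strand, whose mean level was 0.169 FPKM.

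In the opening steps of the sterol branch, the differences were small and the groups mostly overlapped. ACAT2, which joins acetyl-CoA units in the cytosol, had 23.8 and 24.1 FPKM in etoposide libraries, against 22.2 and 22.1 FPKM in DMSO libraries. Its log2 fold change was 0.11 ± 0.07 (limma, adjusted p = 0.541), and 25.2% of its exonic bases overlap TCP1 on the opposite strand, a gene at a mean of 75.4 FPKM, from which reads counted without strand cannot be told apart. HMGCS1, the HMG-CoA synthase, had 80.6 and 87.6 FPKM in etoposide libraries, against 67.05 and 83.7 FPKM in DMSO libraries. Only DMSO replicate 1 was low, so that the groups overlapped. The log2 fold change of HMGCS1 was 0.17 ± 0.12 (limma, adjusted p = 0.569), −0.03 after the length and GC correction and 0.0067 to 0.33 when single libraries were left out. MVK, mevalonate kinase, had 8.17 and 9.62 FPKM in etoposide libraries, against 9.69 and 8.82 FPKM in DMSO libraries, and its groups overlapped. PMVK, the next kinase, had 19.4 and 20.7 FPKM in etoposide libraries, against 24.0 and 21.9 FPKM in DMSO libraries. PMVK was the only enzyme of the sterol branch with both etoposide libraries below both DMSO libraries (log2 fold change −0.19 ± 0.09, limma, adjusted p = 0.439), and it was −0.09 after the correction. MVD, the decarboxylase that gives isopentenyl diphosphate, had 11.1 and 10.4 FPKM in etoposide libraries, against 11.05 and 9.17 FPKM in DMSO libraries.

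Of the enzymes that build the longer isoprenoids, FDPS, farnesyl diphosphate synthase, was the most abundant member of all. FDPS had 147 and 150.2 FPKM in etoposide libraries, against 141 and 133 FPKM in DMSO libraries, with a log2 fold change of 0.12 ± 0.07 (limma, adjusted p = 0.508). Of its 10 exons, 7 kept the groups apart in uncorrected coverage, with no share over all genes to set beside that count. GGPS1, which makes geranylgeranyl diphosphate for protein prenylation, had 12.9 and 12.2 FPKM in etoposide libraries, against 11.7 and 12.0 FPKM in DMSO libraries. Its log2 fold change of 0.08 ± 0.09 was −0.02 after the correction. FDFT1, squalene synthase and the entry to the sterols proper, had 17.7 and 18.9 FPKM in etoposide libraries, against 19.5 and 18.9 FPKM in DMSO libraries.

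Between squalene and cholesterol, CYP51A1 and SC5D had the smallest unadjusted p of the enzymes, and the correction reduced both differences. SQLE, squalene epoxidase, a rate-limiting step, had 28.3 and 29.99 FPKM in etoposide libraries, against 24.8 and 30.04 FPKM in DMSO libraries. LSS, which closes the ring to lanosterol, had 12.0 and 12.3 FPKM in etoposide libraries, against 12.4 and 12.2 FPKM in DMSO libraries. The levels of SQLE and LSS overlapped between the groups. CYP51A1, the lanosterol demethylase, had 28.9 and 30.4 FPKM in etoposide libraries, against 23.9 and 26.8 FPKM in DMSO libraries. Its log2 fold change was 0.23 ± 0.09 (limma, adjusted p = 0.410), and 8 of 10 exons were covered more in both etoposide libraries than in either DMSO library. After the correction CYP51A1 was at 0.11. SC5D, a sterol desaturase near the end of the route, had 13.0 and 13.0 FPKM in etoposide libraries, against 9.64 and 11.6 FPKM in DMSO libraries. Its log2 fold change of 0.30 ± 0.11 (limma, adjusted p = 0.400) was 0.07 after the correction, and 1 of its 5 exons kept the groups apart.

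Among the other late enzymes, MSMO1, the methylsterol oxidase, had 36.2 and 39.3 FPKM in etoposide libraries, against 33.1 and 33.3 FPKM in DMSO libraries (log2 fold change 0.18 ± 0.08, limma, adjusted p = 0.427). Its value was 0.06 after the correction. In uncorrected coverage, 5 of its 6 exons kept the groups apart. EBP, the sterol isomerase, had 27.8 and 28.1 FPKM in etoposide libraries, against 26.6 and 24.2 FPKM in DMSO libraries. DHCR7, which makes cholesterol from dehydrocholesterol, had 36.4 and 36.4 FPKM in etoposide libraries, against 35.0 and 31.9 FPKM in DMSO libraries. EBP and DHCR7 are richer in GC than most members, and the correction left them at 0.21 and 0.18, above their uncorrected 0.14 and 0.12. The other 3 overlapped between the groups. TM7SF2, a sterol reductase, had 43.2 and 50.4 FPKM in etoposide libraries, against 55.5 and 47.0 FPKM in DMSO libraries. NSDHL, a sterol dehydrogenase that removes methyl groups with MSMO1, had 17.6 and 17.03 FPKM in etoposide libraries, against 17.2 and 16.4 FPKM in DMSO libraries. HSD17B7, the reductase of the same complex, had 5.57 and 5.83 FPKM in etoposide libraries, against 5.86 and 5.43 FPKM in DMSO libraries.

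Of the 4 regulators, SREBF1 lay lower and STARD4 higher in etoposide libraries, although neither passed the test, while the groups overlapped for SREBF2 and INSIG1. SREBF1 (ENSG00000072310, chr17:17810399-17837002, minus strand) had 15.3 and 15.1 FPKM in etoposide libraries, against 19.9 and 18.5 FPKM in DMSO libraries. The groups did not overlap, and its log2 fold change was −0.33 ± 0.08 (limma, adjusted p = 0.317), with −0.31 after the correction. SREBF2 had 29.0 and 29.7 FPKM in etoposide libraries, against 29.1 and 29.8 FPKM in DMSO libraries, a log2 fold change of −0.01 ± 0.07. INSIG1, the sterol-sensing retention protein and itself a known SREBP target, had 9.69 and 9.76 FPKM in etoposide libraries, against 8.04 and 9.70 FPKM in DMSO libraries, and its groups overlapped. STARD4, a carrier of cholesterol through the cytosol and a known SREBP-2 target, had 8.57 and 8.55 FPKM in etoposide libraries, against 5.80 and 7.88 FPKM in DMSO libraries. The log2 fold change of STARD4 was 0.34 ± 0.16 (limma, adjusted p = 0.444) and 0.11 after the correction. Its DMSO libraries differed from each other by 0.44 on the log2 scale, the widest gap between DMSO replicates among the members, and leaving out single libraries gave 0.12 to 0.55.

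The difference in SREBF1 was spread along the gene, with the first exon and exon 17 as exceptions. Of the 19 exons of the leading transcript ENST00000261646, which encodes 1147 residues and begins with the exon known for SREBP-1a, 17 were covered less in both etoposide libraries than in either DMSO library. Exon 6 had 22.4 and 22.0 in etoposide libraries, against 31.2 and 29.0 in DMSO libraries. The first exon (chr17:17836727-17836986) had 7.89 and 8.11 in etoposide libraries, against 7.87 and 8.37 in DMSO libraries, and so did not separate the groups. Exon 17 had 8.36 and 9.26 in etoposide libraries, against 11.4 and 7.84 in DMSO libraries. The alternative start exon of ENST00000423161 (chr17:17823518-17823618) had 3.74 and 4.19 in etoposide libraries, against 3.83 and 5.28 in DMSO libraries, and it too overlapped. A transcript annotated for nonsense-mediated decay, ENST00000395756, had 3.07 and 2.42 FPKM in etoposide libraries, against 5.28 and 4.85 FPKM in DMSO libraries (log2 fold change −0.87 ± 0.21, limma over transcripts, adjusted p = 0.715). The leading transcript of SREBF1 had 6.98 and 8.13 FPKM in etoposide libraries, against 9.96 and 8.75 FPKM in DMSO libraries.

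**Figure D2:**
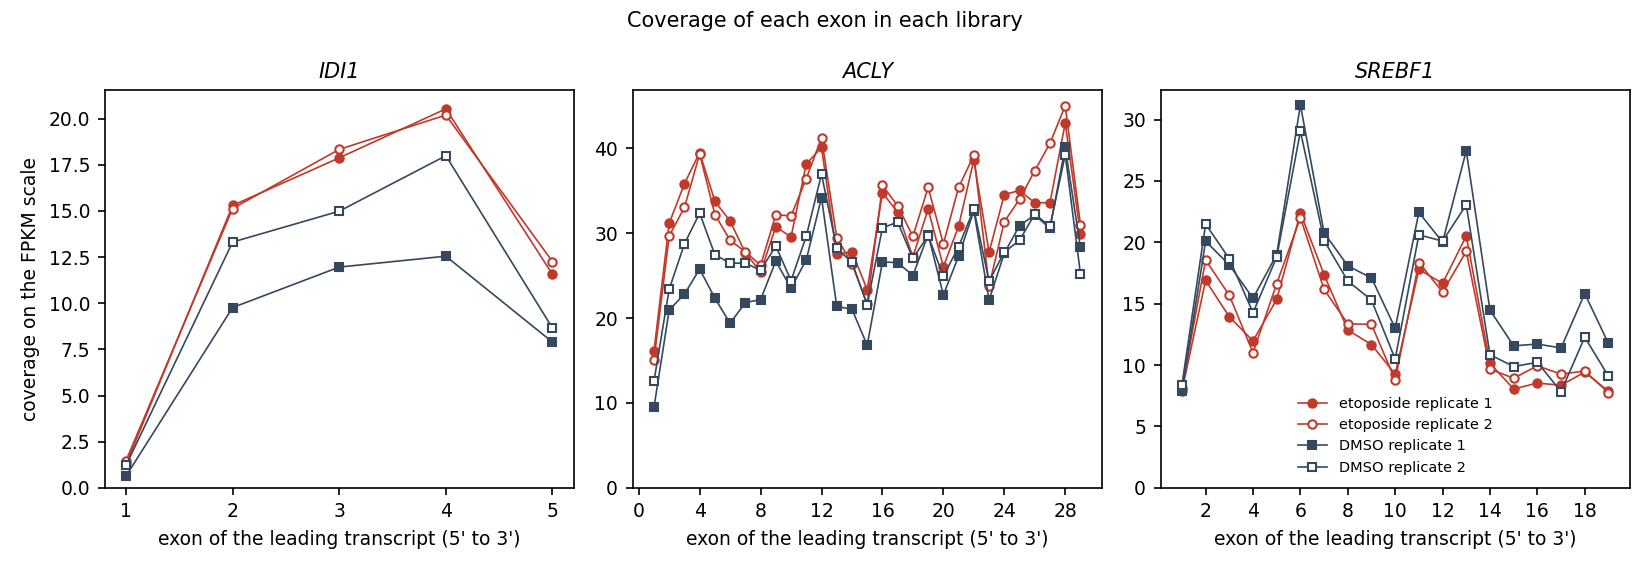
Coverage of each exon of the leading transcript of IDI1, ACLY and SREBF1 on the FPKM scale (vertical axis) by exon number from the 5′ end (horizontal axis), with etoposide as red circles and DMSO as dark squares, filled for replicate 1 and open for replicate 2. All 5 exons of IDI1 and 25 of 29 exons of ACLY have both etoposide libraries above both DMSO libraries, and 17 of 19 exons of SREBF1 have them below. Exons of a gene share the same libraries and are not independent, and the share of such exons over all genes was not computed.

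Promoters of 26 of the 30 members were found in the RefSeq table (GRCh38.p14), as windows of 250 bases before to 50 after a start, and were searched on both strands for the sterol regulatory elements TCACNCCAC and TCACNTGA, for CCAAT, the box bound by NF-Y, and for the E-box CACGTG, which can lie inside TCACNTGA. CCAAT was in a window of 21 of the 26 genes (80.8%), against 39.7% of all 27305 genes of the table. TCACNCCAC was in 1 (3.85%, against 1.39%), TCACNTGA in 2 (7.69%, against 4.65%) and CACGTG in 3 (11.5%, against 8.77%). A match is only a run of letters and no measured binding site. The 150 bases before the start of the leading transcript are shown for the member with the largest positive difference (IDI1, chr10:1049120-1049269, minus strand), for ACLY, which feeds both branches (chr17:41918952-41919101, minus strand), for the member with the largest negative difference (SREBF1, chr17:17836987-17837136, minus strand), and for a pair of the 3 holders of a sterol regulatory element match, SREBF2 (chr22:41832955-41833104, plus strand) and INSIG1 (chr7:155297728-155297877, plus strand), 5′ to 3′ along the gene, with matches in capitals.
IDI1: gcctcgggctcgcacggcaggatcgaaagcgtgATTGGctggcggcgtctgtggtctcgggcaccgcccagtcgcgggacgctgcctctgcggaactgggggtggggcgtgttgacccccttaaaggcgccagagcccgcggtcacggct
ACLY: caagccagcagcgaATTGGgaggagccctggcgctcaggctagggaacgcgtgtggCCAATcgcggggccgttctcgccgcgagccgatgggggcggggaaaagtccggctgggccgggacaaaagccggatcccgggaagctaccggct
SREBF1: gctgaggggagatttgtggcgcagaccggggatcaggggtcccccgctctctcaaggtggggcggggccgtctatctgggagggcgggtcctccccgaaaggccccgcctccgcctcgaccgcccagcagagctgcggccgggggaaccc
SREBF2: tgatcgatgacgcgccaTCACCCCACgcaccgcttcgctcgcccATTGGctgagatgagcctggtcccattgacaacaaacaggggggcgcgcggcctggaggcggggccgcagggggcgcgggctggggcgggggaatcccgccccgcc
INSIG1: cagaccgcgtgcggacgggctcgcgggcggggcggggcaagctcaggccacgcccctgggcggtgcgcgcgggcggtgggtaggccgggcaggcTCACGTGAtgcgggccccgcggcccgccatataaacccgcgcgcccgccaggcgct
The other holder, EBP, has TCAGGTGA, the reverse strand of TCACNTGA, in its window and is not shown. Of the 3 windows of IDI1, only the one at the start of its leading transcript is shown. The exon behind that start had 0.637 to 1.47 in single libraries on the FPKM scale, the lowest of that transcript's exons. Another IDI1 window (chr10:1048837-1049136) holds CCAAT matches as well. The SREBF1 stretch holds none of the searched letters, IDI1 and ACLY hold CCAAT or its reverse complement ATTGG, SREBF2 holds TCACCCCAC with ATTGG behind it, and INSIG1 holds TCACGTGA, in which the E-box lies.

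In the fatty acid branch, 5 of the 7 enzymes had both etoposide libraries above both DMSO libraries and 1 had them below, where 28.9% and 19.0% of all genes did. ACLY, ATP citrate lyase, which supplies cytosolic acetyl-CoA to both branches (ENSG00000131473, chr17:41866917-41930542, minus strand), had 32.4 and 32.4 FPKM in etoposide libraries, against 26.3 and 27.7 FPKM in DMSO libraries. Its log2 fold change was 0.26 ± 0.08 (limma, adjusted p = 0.342) and 0.20 after the correction. Of its 29 exons, 25 kept the groups apart in uncorrected coverage, again with no share over all genes computed. ACACA, acetyl-CoA carboxylase, the committed step, had 4.25 and 4.51 FPKM in etoposide libraries, against 3.78 and 4.71 FPKM in DMSO libraries, so that its groups overlapped. FASN, fatty acid synthase, had 53.6 and 56.6 FPKM in etoposide libraries, against 52.1 and 53.3 FPKM in DMSO libraries, a log2 fold change of 0.06 ± 0.07. SCD, which puts the double bond into stearate, had 73.9 and 78.3 FPKM in etoposide libraries, against 55.3 and 70.6 FPKM in DMSO libraries. The log2 fold change of SCD was 0.28 ± 0.13 (limma, adjusted p = 0.433) and 0.14 after the correction, beside a gap of 0.35 between its DMSO libraries and a range of 0.11 to 0.46 when single libraries were left out.

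The enzymes that lengthen and desaturate fatty acids did not share a direction. FADS1, a desaturase of polyunsaturated fatty acids, had 35.9 and 35.6 FPKM in etoposide libraries, against 29.0 and 32.4 FPKM in DMSO libraries (log2 fold change 0.22 ± 0.08, limma, adjusted p = 0.405), with 10 of 12 exons apart. FADS1 was at 0.14 after the correction and between 0.14 and 0.30 when single libraries were left out. FADS2, the desaturase that acts before FADS1 in the same route, had 52.1 and 52.1 FPKM in etoposide libraries, against 51.3 and 47.7 FPKM in DMSO libraries. Its log2 fold change was only 0.07, and 10 of its 12 exons were apart as well. FADS1 and FADS2 lie on opposite strands of chromosome 11 and share 142 exonic bases. A FADS2 transcript, ENST00000257261, had 12.2 and 12.9 FPKM in etoposide libraries, against 8.94 and 7.73 FPKM in DMSO libraries (log2 fold change 0.59 ± 0.14, limma over transcripts, adjusted p = 0.715), while the leading FADS2 transcript ENST00000278840 had 28.7 and 26.9 FPKM in etoposide libraries, against 28.2 and 28.5 FPKM in DMSO libraries. ELOVL6, which lengthens palmitate, had 9.69 and 9.86 FPKM in etoposide libraries, against 10.3 and 11.1 FPKM in DMSO libraries (log2 fold change −0.13 ± 0.09, limma, adjusted p = 0.564). It was at −0.32 after the correction. In uncorrected coverage, exon 4, which holds 5917 of the 6570 bases of the leading transcript, was at −0.12 on the log2 scale. Both etoposide libraries lay below both DMSO libraries there. The other 3 of its 4 exons had a higher mean coverage in etoposide libraries, with overlapping groups.

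Set against each other, the branches did not separate. The median log2 fold change was 0.10 over the sterol branch, where 9 enzymes had etoposide above DMSO in every library, 1 below and 9 overlapping. It was 0.07 over the fatty acid branch, with 5 above, 1 below and 1 overlapping, and 0.07 over the 4 regulators. Over all genes tested the median was 0.04, and 28.9% of genes had etoposide above DMSO in every library and 19.0% below. The median of the sterol branch exceeded that of the fatty acid branch by 0.02, and the sign of this difference depended on the setting. It was −0.14 without DMSO replicate 2, −0.03 without DMSO replicate 1, −0.04 with voom, −0.04 on exon coverage and −0.04 after the length and GC correction, which gave 0.06 for the sterol branch and 0.10 for the fatty acid branch. Relative to the mean of the DMSO libraries, the sterol branch median lay at 0.10 and 0.12 in etoposide libraries and at 0.02 and −0.02 in DMSO libraries. The fatty acid branch lay at 0.07 and 0.10 in etoposide libraries and at −0.06 and 0.06 in DMSO libraries. All genes tested lay at 0.042 and 0.037 in etoposide libraries. The DMSO values of each set mirror each other around 0, because every gene was set against the mean of those libraries.

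**Figure D3:**
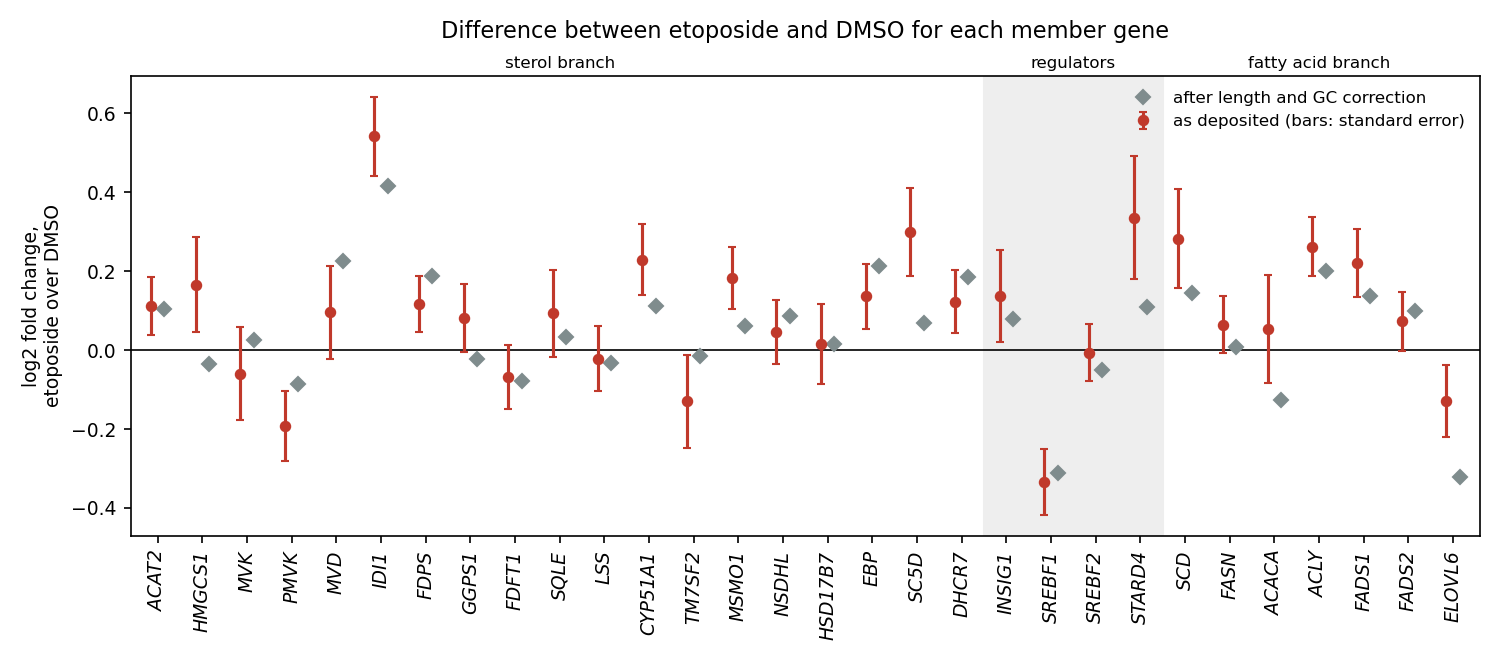
Log2 fold change of etoposide over DMSO (vertical axis) for each of the 30 genes (horizontal axis), as deposited (red, with standard errors from limma) and after correction of each library for transcript length and GC content (grey diamonds). IDI1 at 0.54, STARD4 at 0.34 and SREBF1 at −0.33 lie farthest from 0 as deposited, and ELOVL6 at −0.32 comes beside SREBF1 after the correction.

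GC content moved with the members' differences. Over the 30 genes, the Spearman correlation of the log2 fold change with GC content was −0.608, and that of DMSO replicate 2 minus replicate 1 was −0.711, against −0.007 for the etoposide replicates. These are descriptions over genes that share the same 4 libraries. The 8 members under 45% GC, which include STARD4, SC5D, IDI1 and CYP51A1, had a median log2 fold change of 0.21, against 0.13 for the 8070 genes tested in that range. The 10 members over 55% GC, which include SREBF1, TM7SF2 and PMVK, had a median of −0.01, against −0.06 for 5927 genes. After the correction, the medians of those 8 and 10 members were 0.07 and −0.0031 and the correlation over the 30 genes was −0.093. DMSO replicate 2 lay nearer to the etoposide mean than DMSO replicate 1 did for 20 of the 30 members. The share over all genes was not computed, so this count is not shown to be particular to the members. The part of GC content and of DMSO replicate 1 in these differences was not tested further. Without DMSO replicate 2, when the low-GC and high-GC differences of DMSO replicate 1 stand alone against etoposide, 6 members were higher (IDI1, SC5D, STARD4, SCD, ACLY and FADS1) and 1 was lower (SREBF1) at an adjusted p under 0.05, beside 8.72% of all genes. In that fit the DMSO group is 1 library, which is assumed to vary as the 2 etoposide libraries do. Without DMSO replicate 1, 0 members passed, beside 0.0225% of all genes, and without etoposide replicate 1 or 2, 0 members passed, beside 0.442% and 0.46%. After the length and GC correction 0 members passed, beside 0.027% of all genes. On exon coverage 0 members passed, beside 0.00451% of all genes, and on corrected exon coverage 0 members passed, beside 0.915%.

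**Figure D4:**
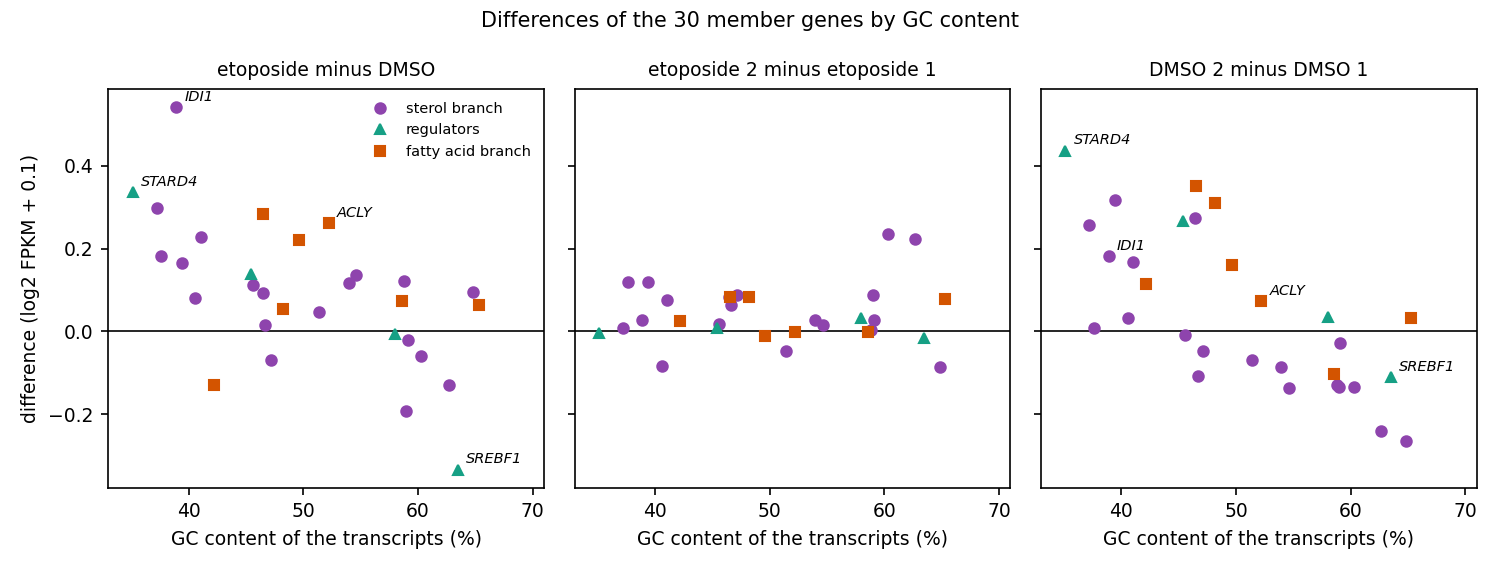
Difference on the log2(FPKM + 0.1) scale (vertical axis) against GC content in % (horizontal axis) for the 30 genes, for etoposide minus DMSO (left), etoposide replicate 2 minus 1 (middle) and DMSO replicate 2 minus 1 (right). The points fall with GC content on the left and right (Spearman correlations −0.608 and −0.711) and show no slope in the middle (−0.007).

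The genes around the pathway were compared in the same fit, and none passed the test (limma, adjusted p of at least 0.337). Of 11 genes that process the SREBPs, 5 had both etoposide libraries above both DMSO libraries and 1 below, where 28.9% and 19.0% of all genes did, and the median log2 fold change of 0.09 was −0.05 after the correction. SEC23A, a coat protein of the vesicles that carry SREBPs to the Golgi, had 28.3 and 29.1 FPKM in etoposide libraries, against 22.1 and 27.2 FPKM in DMSO libraries, and SEC24A of the same coat had 5.94 and 6.11 FPKM in etoposide libraries, against 4.19 and 5.72 FPKM in DMSO libraries. After the correction the log2 fold changes of SEC23A and SEC24A were 0.06 and 0.07, down from 0.23 and 0.29. Of 19 genes of sterol uptake, efflux and storage, 6 lay above and 7 below. The nuclear receptor RXRA, partner of the liver X receptors, had 4.65 and 4.71 FPKM in etoposide libraries, against 5.71 and 5.98 FPKM in DMSO libraries (log2 fold change −0.31 ± 0.10, adjusted p = 0.366), and NR1H2, the liver X receptor beta, had 10.2 and 10.1 FPKM in etoposide libraries, against 11.9 and 11.4 FPKM in DMSO libraries. Of 14 genes tested that use isoprenoids, 5 lay above and 5 below. CHML, a Rab escort protein, had 9.998 and 10.3 FPKM in etoposide libraries, against 5.92 and 9.65 FPKM in DMSO libraries, and PDSS2, of the ubiquinone side chain, had 2.49 and 2.77 FPKM in etoposide libraries, against 3.19 and 2.99 FPKM in DMSO libraries. The log2 fold change of CHML was 0.42, or 0.14 after the correction, and between 0.072 and 0.77 when single libraries were left out.

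On the fatty acid side, 13 of 26 other synthesis genes tested lay above and 4 below, again beside 28.9% and 19.0% of all genes, with a median log2 fold change of 0.17 that was 0.05 after the correction. ELOVL5, an elongase of polyunsaturated fatty acids, had 24.0 and 25.7 FPKM in etoposide libraries, against 16.9 and 20.4 FPKM in DMSO libraries (log2 fold change 0.42 ± 0.11, limma, adjusted p = 0.337). ELOVL1, an elongase of saturated very long chains, had 20.6 and 21.1 FPKM in etoposide libraries, against 26.1 and 24.3 FPKM in DMSO libraries (log2 fold change −0.27 ± 0.08, limma, adjusted p = 0.357). Of 12 genes of glycerolipid storage 5 lay above and 1 below, with PNPLA3, a lipase of lipid droplets, at 1.09 and 0.975 FPKM in etoposide libraries, against 0.629 and 0.845 FPKM in DMSO libraries, and PLIN3, a droplet coat protein, at 11.4 and 12.0 FPKM in etoposide libraries, against 13.8 and 12.7 FPKM in DMSO libraries. Of 12 genes of fatty acid oxidation 3 lay above and 0 below, with PPARA, its nuclear receptor, at 2.22 and 2.54 FPKM in etoposide libraries, against 1.67 and 1.89 FPKM in DMSO libraries, and ACADVL, which starts the oxidation of long chains, at 55.5 and 56.2 FPKM in etoposide libraries, against 54.5 and 49.8 FPKM in DMSO libraries.

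Receptors and an enzyme outside the set did not pass the test either. LRP8, a lipoprotein receptor, had 3.30 and 3.54 FPKM in etoposide libraries, against 2.51 and 2.79 FPKM in DMSO libraries (log2 fold change 0.36 ± 0.12, limma, adjusted p = 0.386). The log2 fold changes of the lipoprotein receptors LRP1 and VLDLR and of the sterol reductase LBR were 0.13, 0.02 and −0.01, with overlapping groups for VLDLR and LBR.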

How the data were processed

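RNA was sequenced as stranded mRNA libraries read in pairs of 100 bases. Alignment by the authors was to GRCh38 in HISAT2, followed by SAMtools, and transcripts of the Ensembl annotation were quantified in StringTie 2.1.7 with no strand option. The deposited tables give a coverage per base, an FPKM and a TPM for each of 236853 transcripts, in units the authors' software scales to the mapped bases of a library (FPKM) or to a fixed total (TPM). Processing notes name DESeq2, but its counts are not used here.

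The FPKM of all transcripts of a gene were added up (60605 genes, with names from any of the files). Genes whose mean FPKM reached 0.1 were tested with limma 3.58.1 (R 4.3.3) on log2(FPKM + 0.1), with trend and robust fitting, and p-values were adjusted by Benjamini-Hochberg over 22185 genes. The fold changes understate those of low genes. The length and GC correction was a loess of span 0.3 per library against the mean of all libraries, without regard to group. Exon coverage was summed over transcripts and divided by the library's ratio of coverage to FPKM. Counts of exons that kept the groups apart used uncorrected coverage, and the share of such exons over all genes was not computed. The test was tested on simulated data. Tables and figures used Python 3.11.15, pandas 2.3.3 and matplotlib 3.10.9. The members and lists were chosen with earlier results of these data known. All 30 members were named, and of every other list the 2 genes with the smallest unadjusted p, with the enzymes and lipoprotein receptors of the route outside the lists, some of which are not reported here. No counts are in the files, so no counting interval is given. Fragments estimated from coverage ran from 406 to 29266 per member and library. Alternatives covered the pseudocount, the filter on low values, TPM, centring on the median gene, leaving out mitochondrial genes, voom, limma without trend, the correction, a replicate block and leaving out each library. Exon coverage in place of summed FPKM, with and without the correction, and the correction with the block were chosen after seeing the data. Replicate numbers only name samples, since deviations of same-numbered samples had a correlation of 0.013.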

Additional observations from a re-analysis of the deposited data

How the results depend on the processing

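No alternative that kept all 4 libraries brought a member past an adjusted p of 0.05, and the other pseudocounts, the other filters, limma without trend or robust fitting, leaving out mitochondrial genes and the replicate block turned the direction of no member. Of the 30 members, 14 stayed positive and 4 negative under all 18 alternatives, among them IDI1 (0.38 to 0.63), ACLY (0.19 to 0.33) and SREBF1 (−0.39 to −0.27). Leaving out single libraries gave 3 to 1344 genes called higher and 2 to 590 called lower, with 0 to 6 members higher and 0 to 1 lower, and all member calls came without DMSO replicate 2, where the lone DMSO library is assumed to vary as the etoposide libraries do. It gave sterol branch medians of 0.068 to 0.12, fatty acid branch medians of 0.074 to 0.21 and differences between them of −0.14 to 0.030. Of all genes, voom called 1 higher, the length and GC correction 6 lower, exon coverage 1 lower, and exon coverage with the correction 34 higher and 169 lower. The median of all genes moved to 0.10 with TPM, and the sterol and fatty acid medians to 0.16 and 0.14, while centring on the median gene gave 0.036 and 0.014. The sterol median was 0.062 after the length and GC correction, with or without the replicate block, and 0.037 with corrected exon coverage, where the fatty acid median was 0.15 and the difference −0.11. With voom the fatty acid median was 0.13. Some genes near 0 crossed it. With TPM, MVK was at 0.0069, LSS at 0.045, SREBF2 at 0.061, LBR at 0.058. After centring on the median gene, NSDHL was at −0.013, HSD17B7 at −0.044, ACACA at −0.0057, VLDLR at −0.035. With voom, LSS was at 0.048, SREBF2 at 0.006. After the length and GC correction, with or without the replicate block, HMGCS1 was at −0.035, MVK at 0.026, GGPS1 at −0.022 and ACACA at −0.13, and without the block LRP1 was at −0.010, VLDLR at −0.12. With exon coverage, LSS was at 0.043, NSDHL at −0.021, HSD17B7 at −0.0001, SREBF2 at 0.0033. With corrected exon coverage, HMGCS1 was at −0.015, MVK at 0.081, GGPS1 at −0.073, LSS at 0.037, TM7SF2 at 0.0094, FASN at −0.0086, ACACA at −0.16. Leaving out single libraries gave ranges that cross 0 of −0.18 to 0.058 for MVK, −0.037 to 0.23 for MVD, −0.043 to 0.23 for SQLE, −0.039 to 0.069 for HSD17B7, −0.024 to 0.011 for SREBF2, −0.10 to 0.21 for ACACA, −0.13 to 0.17 for VLDLR, −0.15 to 0.13 for LBR. The cause of these shifts was not tested. The replicate block changed no call (0 genes higher and 0 lower). Exon coverage, alone and corrected, and the correction with the block were chosen after seeing the data. With 2 libraries a group, differences of the size seen in the members did not pass after adjustment.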
